A study of Apis mellifera with 18 samples.

Results

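The visual opsins of the honey bee are 4 genes in the RefSeq annotation, Lop1, Lop2, UVop and Blop. Each was found by its symbol among the 12631 gene symbols and unmatched feature names of the count files. Each has 1 RefSeq transcript, which was present as 1 feature in every library, so that all 4 members were measured without a split between isoforms. The transcripts are NM_001011639.2 (Lop1), NM_001077825.1 (Lop2), NM_001011605.1 (UVop) and NM_001011606.1 (Blop). Their counts were followed through 3 tissues, the brain, the ventriculus, which is the bee's midgut, and the Malpighian tubules, which serve as its kidneys, of workers from 6 patrilines of Colony 36, P1, P7, P8, P11, P21 and P24. A patriline is the set of workers of a colony that share a father. Each tissue had 6 pools, 1 per patriline, and each of the 18 pools held RNA of 5 workers, with 300 ng from each worker. The workers of all groups had been fed 4.27 ppb clothianidin, a neonicotinoid insecticide, in 50% sucrose at 8 days of age and were frozen 24 h later. Unexposed workers were not analysed here, and the labels give the patriline but no survival class, so that patrilines are shown 1 by 1 and are not grouped.

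Opsins are receptors of the G protein-coupled family that hold retinal and start the response of a photoreceptor cell to light. The honey bee sees ultraviolet, blue and green light with 3 kinds of photoreceptor in the compound eye, which carry UVop, Blop and Lop1. Lop2 is a further long-wavelength opsin that is known from the ocelli, the simple eyes on top of the head. The retina borders on the optic lobes of the brain, while the midgut and the tubules are not known as visual organs. The hypopharyngeal glands, also in the head, make the proteins of royal jelly.

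Total counts per library lay between 39722329 and 87946924, and between 40403232 and 51605747 in the brain pools. Levels are given as CPM, counts scaled to 1000000 counts of the library size after TMM scaling, a scaling that sets the bulk of transcripts equal between libraries. Transcript lengths were not used, so levels are compared between libraries and not between opsins. Intervals given for counts are 95% exact intervals and cover counting error only. The differences between tissues are given as logFC, the log2 difference of the edgeR quasi-likelihood fit over all 18 libraries, with its standard error (SE) and with the false discovery rate (FDR, Benjamini-Hochberg over all 10209 transcripts tested). All patrilines come from 1 colony, so that the tests measure the spread between its patriline pools.

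Before the opsins are described, 3 libraries have to be named that stood apart. The share of counts on royal jelly genes was 28.1% in the brain pool of P11 and 19.2% in that of P21, against 0.856% to 3.97% in the other 4. All 12 genes of the neuron list with at least 1 CPM in the brain were lower in the brain pools of P11 and P21 than in each of the other 4. The P21 brain pool also held 94 tubule marker transcripts. Their median excess over the other brain pools was 14.7% of the level in tubules, where the other brain pools lay between −0.0467% and 0.0187%. In turn, the P21 tubule pool held brain transcripts (95 markers) at a median excess of 13.5% of the brain level, against at most 0.331% in the other tubule pools. In these shares the source level is the median of the 5 other patrilines, and the median of the other pools of the same tissue was subtracted first. Results that rest on these libraries are therefore given with and without them.

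Lop1, the long-wavelength opsin of the compound eye, was abundant in every brain pool and varied widely among them. The brain pools held 262 CPM in P1, 292 in P7, 323 in P8, 7722 in P11, 3065 in P21 and 716 in P24. In the ventriculus Lop1 lay between 0.143 and 1.88 CPM, with 159 counts over the 6 pools (interval 135 to 186). The tubule pools held 0.323 CPM in P1, 0.0929 in P7, 0.259 in P8, 2.76 in P11 and 0.481 in P24, but 399 CPM in P21. Every brain pool was thus above every ventriculus pool, and the brain pools of P1, P7 and P8 were below 1 tubule pool, that of P21. Within patrilines the ratio of the brain to the ventriculus ranged from 728 in P1 to 4100 in P11.

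**Figure D1:**
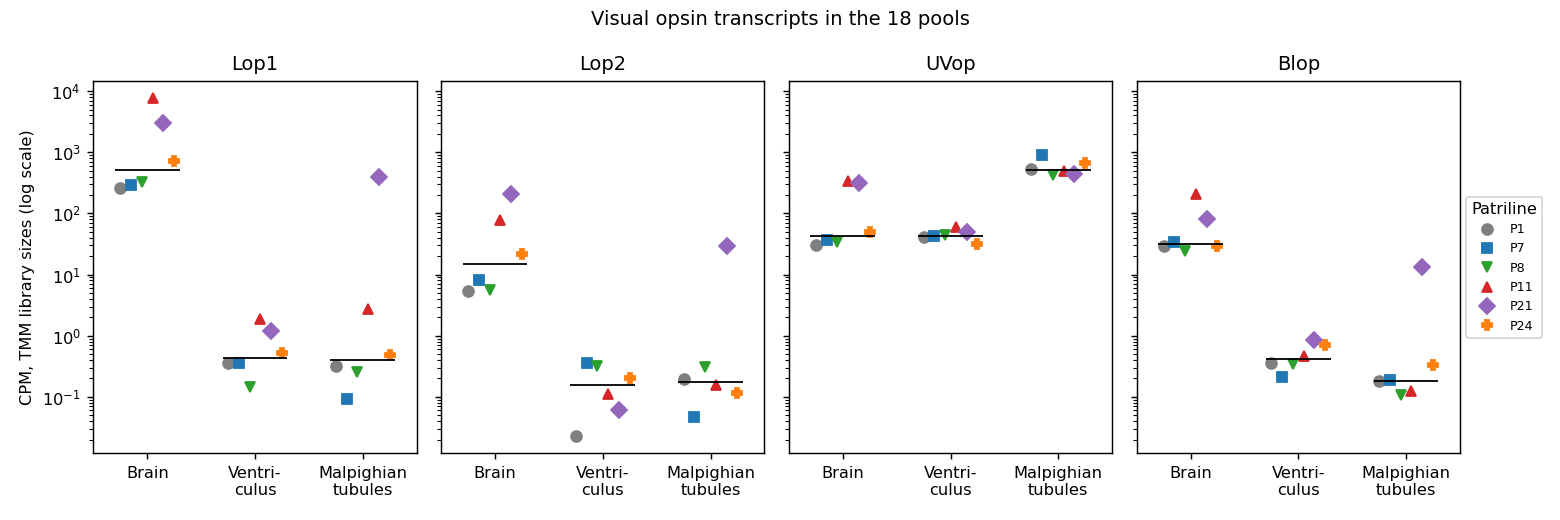
CPM of Lop1, Lop2, UVop and Blop (log axis) in the brain, the ventriculus and the Malpighian tubules. Each point is 1 pool, its shape and colour give the patriline, and the line is the median of 6 pools. Lop1, Lop2 and Blop are high in the brain and near 0 in the gut except in the tubule pool of P21 (399, 28.9 and 13.0 CPM), whereas UVop is highest in the tubules.

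Lop2, the ocellar long-wavelength opsin, was counted at 5.42 CPM in the P1 brain pool, 8.16 in P7, 5.60 in P8, 77.5 in P11, 207 in P21 and 21.9 in P24. P21 and not P11 was the highest here, by a wide gap. The ventriculus pools held 0.0225 to 0.360 CPM, from 37 counts in all (interval 26.1 to 51.0). In the tubules 5 pools held 0.0464 to 0.302 CPM, and the P21 pool held 28.9 CPM, more than 4 of the 6 brain pools. Lop1 and Lop2 are direct neighbours in the annotation and belong to 1 family, and fragments aligned equally well to both would have been counted for neither, which makes their values uncertain to that extent.

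Blop, the blue opsin, stood at 29.7 CPM in the P1 brain pool, 33.9 in P7, 24.5 in P8, 206 in P11, 81.7 in P21 and 29.4 in P24. The 4 brain pools without P11 and P21 were close to one another, with a mean of 29.4 ± 3.87 CPM (SD). The ventriculus pools held 0.210 to 0.839 CPM, 104 counts in all. In the tubules Blop was at 0.108 to 0.327 CPM in 5 pools and at 13.0 CPM in P21, which stayed below the lowest brain pool. Blop overlaps another gene, LOC410563, in the annotation. The strand setting of the counting is not given in the sources used here, so reads of overlapping exons could have been lost or shared.

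UVop, the ultraviolet opsin, had a different order of tissues. The brain held 30.8 CPM in P1, 36.1 in P7, 33.6 in P8, 339 in P11, 311 in P21 and 50.4 in P24. The ventriculus held 41.6 CPM in P1, 43.0 in P7, 43.7 in P8, 59.0 in P11, 49.8 in P21 and 31.2 in P24. The tubules, the highest of the tissues, held 524 CPM in P1, 910 in P7, 421 in P8, 497 in P11, 447 in P21 and 678 in P24. Every tubule pool was above every pool of the other tissues, while the brain and ventriculus pools overlapped. UVop was thus the one opsin of the 4 with more than 1 CPM in every gut pool.

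The first comparison asked how far each opsin marks the brain against the ventriculus. All 4 opsins passed the filter on low counts. Lop2 did so through the brain pools and failed it in the 12 gut libraries alone, so that its difference from either gut tissue was fixed in advance and its FDR supports nothing, while the other 3 passed in the gut libraries as well. The logFC was 11.44 for Lop1 (SE 2.42, FDR = 0.000352), 8.26 for Lop2 (SE 1.86, FDR = 0.000617) and 7.12 for Blop (SE 1.33, FDR = 0.000104). Of all transcripts tested, 77.4% were called in this comparison, 44.2% higher and 33.3% lower in the brain. For Lop1 and Blop the logFC stayed positive and past the threshold in all 14 alternatives. The logFC of Blop lay between 5.88 and 8.46. That of Lop2 lay between 5.83 and 9.58, a range given as a description only. Without the 3 libraries that stood apart the logFC was 9.03 for Lop1, 5.83 for Lop2 and 5.88 for Blop. AChE-2, an acetylcholinesterase and the most abundant gene of the neuron list, had a logFC of 8.62 in the same fit (SE 1.25, FDR = 6.93e-06).

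For UVop the brain averaged 133 ± 149 CPM and the ventriculus 44.7 ± 9.23 CPM (SD, n = 6 each). The logFC was 1.58 (SE 0.561, FDR = 0.0165). This call rested on the brain pools of P11 and P21. In P1, P7 and P8 the brain was below the ventriculus, at 0.741, 0.840 and 0.769 times its level. Without the P11 patriline the FDR was 0.0843, without P21 it was 0.0864, and without both of these brain pools and the P21 tubule pool the logFC was −0.28 (FDR = 0.241). With the patriline as a block, which compares the tissues of the same workers, the logFC was 1.03 and the call was lost (FDR = 0.110). The order also depended on the scaling. By library size alone UVop lay between 54.9 and 405 CPM in the brain and between 14.7 and 35.2 CPM in the ventriculus, without overlap, and the logFC was 2.88. Leaving out the TMM factors moved the median logFC of all transcripts to 1.79, against 0.23 with them, and relative to that median the logFC of UVop was 1.08 without and 1.35 with the factors. For the tubules the corresponding medians were 0.52 and 0.11 (brain minus tubules) and −1.30 and −0.15 (ventriculus minus tubules).

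Against the Malpighian tubules, Lop1 (logFC 4.94, SE 1.83, FDR = 0.0217) was higher in the brain, where 75% of all transcripts were called and 40.5% were called higher. Blop was higher in the brain too (logFC 4.84, SE 1.17, FDR = 0.00123). Lop2 had a logFC of 3.45 (SE 1.42, FDR = 0.0362), a description only because of the filter. The sizes were set by the P21 tubule pool. Without the 3 libraries that stood apart, the logFC was 8.86 for Lop1, 5.88 for Lop2 and 7.22 for Blop. Without P21 alone it was 11.18 for Lop1 (FDR = 1.09e-05) and 7.14 for Lop2. With the patriline as a block it was 9.46 for Lop1 (FDR = 0.000136) and 5.30 for Lop2. In the fit of the 12 brain and tubule libraries alone the logFC hardly moved (4.90 for Lop1 and 3.40 for Lop2), but Lop1 missed the threshold (FDR = 0.0561). Lop1 also missed it without P11 (FDR = 0.0970).

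UVop fell in the brain relative to the tubules, with a logFC of −2.12 (SE 0.570, FDR = 0.00285), and 34.5% of all transcripts were called lower. The brain averaged 133 ± 149 CPM and the tubules 579 ± 186 CPM (SD, n = 6 each), and the highest brain pool (339 CPM) was below the lowest tubule pool (421 CPM). The logFC was negative and past the threshold in all 14 alternatives, from −4.07 without the 3 libraries to −1.75 with 1 patriline left out. Within patrilines the tubules held 12.5 to 25.2 times the brain level in P1, P7, P8 and P24, but only 1.47 times in P11 and 1.44 times in P21.

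Between the 2 gut tissues UVop was lower in the ventriculus, with a logFC of −3.70 (SE 0.609, FDR = 5.98e-05), and here 59.3% of all transcripts were called, 32.8% lower and 26.5% higher. The ventriculus averaged 44.7 ± 9.23 CPM and the tubules 579 ± 186 CPM, and the logFC lay between −4.82 and −3.51 over 14 alternatives. Lop1 and Lop2 were also called lower in the ventriculus (logFC −6.49, FDR = 0.0103, and logFC −4.81, FDR = 0.0202). Those calls rested on the P21 tubule pool. Without P21 the logFC of Lop1 was −0.29 (FDR = 0.848) and that of Lop2 0.25 (FDR = 0.837), and with the patriline as a block neither was called (FDR = 0.428 and 0.350). Blop did not pass the threshold (logFC −2.27, FDR = 0.0919). Without the 3 libraries it was higher in the ventriculus, with a logFC of 1.35 (FDR = 0.00371), at levels below 1 CPM in both tissues.

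**Figure D2:**
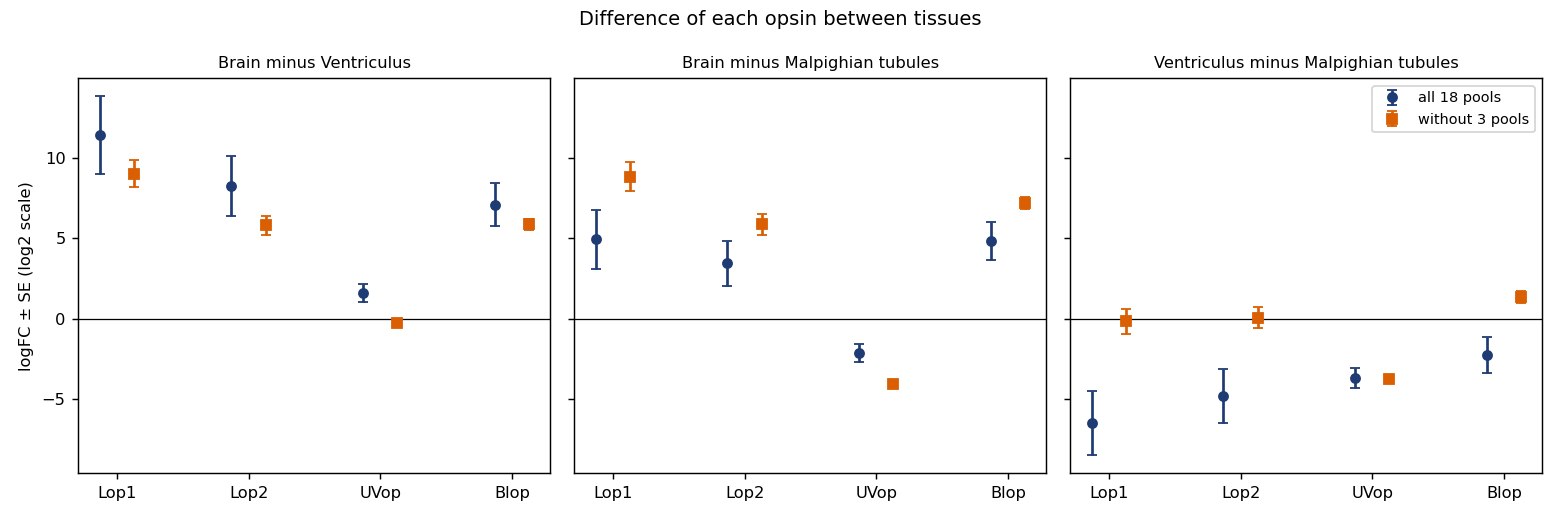
logFC of each opsin between tissues on the log2 scale, with its SE, from all 18 pools (circles) and without the brain pools of P11 and P21 and the tubule pool of P21 (squares). A positive value is higher in the first named tissue. UVop is lower in the brain and in the ventriculus than in the tubules in both fits (−2.12 and −4.07, −3.70 and −3.79), while its difference between brain and ventriculus turns sign (1.58 and −0.28).

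Among the 6 brain pools, each opsin spread far more than most transcripts. The highest pool held 29.5 times the lowest for Lop1, 38.2 times for Lop2, 10.99 times for UVop and 8.41 times for Blop. The coefficient of variation was 144% for Lop1, 147% for Lop2, 111% for UVop and 105% for Blop, where the median of 7344 brain transcripts of at least 1 CPM was 18.0%. These coefficients exceeded those of 98.2%, 98.4%, 96.7% and 96.4% of the transcripts. P11 and P21 were the 2 highest brain pools for all 4 opsins. Without them the highest pool held 2.73 times the lowest for Lop1, 4.05 times for Lop2, 1.64 times for UVop and 1.39 times for Blop, and P24 was the highest of the remaining 4 pools except for Blop. Each patriline has 1 brain pool, so a difference between patrilines and a difference between dissections cannot be told apart. In pooled tissue, more photoreceptor cells and more opsin RNA per cell cannot be told apart either.

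Other markers moved with the opsins in the brain pools. The summed level of the neuron list in P11 and P21 was 1532 and 1402 CPM, while the other 4 brain pools lay between 3002 and 4158 CPM. AChE-2 stood at 1042 and 992 CPM in P11 and P21, against 2237 to 3241 CPM elsewhere, and nAChRa1, a subunit of the nicotinic acetylcholine receptor, at 189 and 164 CPM, against 277 to 425 CPM. Both glial genes of at least 1 CPM were lower in these pools too. Of 8 genes of the hypopharyngeal gland list with at least 1 CPM, 7 were higher in P11 and P21 than in each other brain pool, with Mrjp1, a major royal jelly protein, at 188822 and 118164 CPM against 3940 to 17242 CPM. Of 6 muscle genes matched, the 3 with at least 1 CPM in the brain were higher. Among the scarce ones TpnCIIb was not (0.716 and 0.742 CPM against 0.728 to 1.33), and TpnCIIa was not higher in both pools (0.239 and 0.0660 CPM against 0.0435 to 0.210). TpnCIIIa, a troponin C, had 97.0 and 244 CPM against 13.6 to 47.7 CPM. Of 5 fat body genes at that level 2 were higher and 2 lower. The 2 higher were Vg (vitellogenin, 302 and 265 CPM against 7.66 to 20.6) and Hex70a (a hexamerin, 281 and 224 CPM against 10.5 to 22.2). The 2 lower were Fabp (641 and 428 CPM against 839 to 1258) and HEX70b (7.54 and 9.78 CPM against 10.2 to 23.7). The summed fat body list was at 5459 and 4446 CPM, against 4270 to 5063 CPM in the other brain pools. The part of gland, muscle or other head tissue in the opsin levels was not tested. Among the 4 other pools the orders differed, as P24 had the lowest royal jelly share (0.856%) and the highest Lop1 level (716 CPM).

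**Figure D3:**
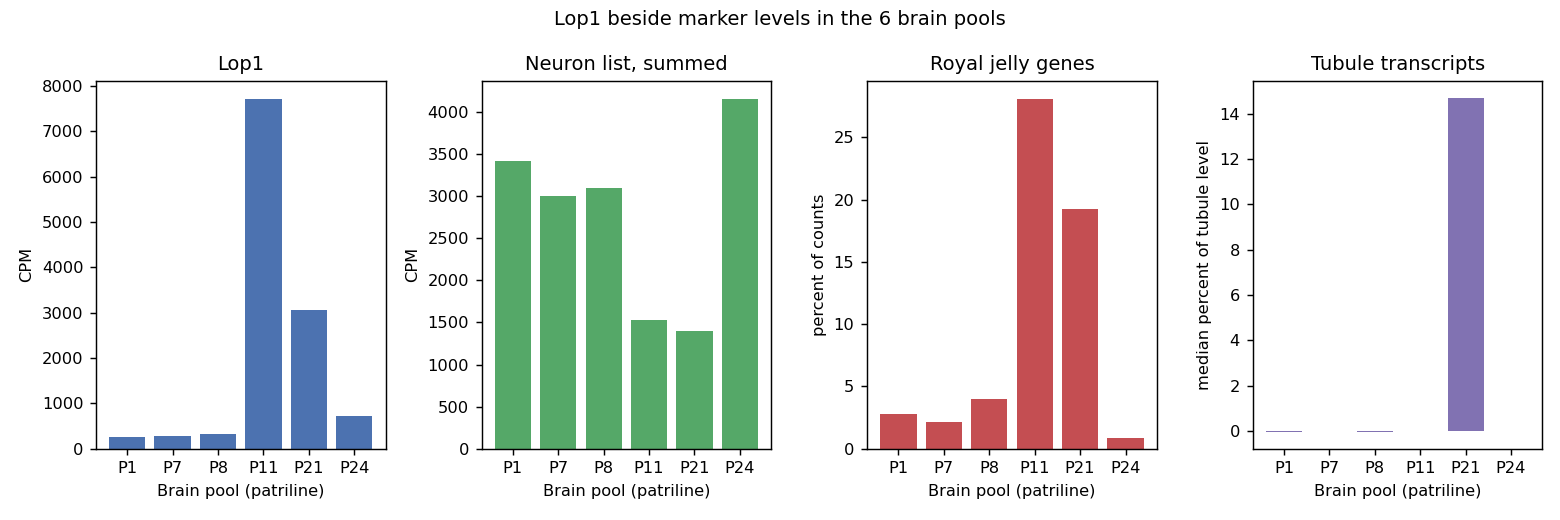
The 6 brain pools by patriline. Bars give Lop1 in CPM, the summed CPM of the neuron list and the percent of counts on royal jelly genes. The last panel gives the median excess of tubule transcripts over the other brain pools, as a percent of their level in tubules. P11 (7722 CPM) and P21 (3065 CPM) are highest in Lop1 and in royal jelly genes and lowest in the neuron list, and only P21 holds tubule transcripts (14.7%).

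Of the other genes of vision, few could be followed, because the annotation table has no product names. None of 34 names of phototransduction and photoreceptor structure matched. Hiscl1, a histamine-gated chloride channel of the family that receives the photoreceptors' transmitter, was the 1 match with at least 1 CPM in the brain in the lists of eye development, pigment and histamine genes. It had 94.5 CPM in P1, 79.3 in P7, 79.6 in P8, 90.1 in P11, 68.0 in P21 and 124 in P24, so that the 2 pools rich in opsin were not high in it. Its brain level exceeded that of the ventriculus by a logFC of 8.09 (SE 1.31, FDR = 2.23e-05) and that of the tubules by 5.15 (SE 1.11, FDR = 0.000450). In the tubules Hiscl1 was at 13.8 CPM in P21 and at 0.0432 to 0.542 CPM in the other pools. The size of the tubule difference thus depends on the P21 pool, and no value without that pool is given here. The eye factor otd2 stayed below 0.32 CPM in the brain, and its 2 highest pools were P21 (0.313 CPM) and P11 (0.312 CPM), while the other 4 held 0.0700 to 0.112 CPM. Cry2 and Per, of the light sensing and clock list, were listed at 0 in the brain pools.

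The opsins did not keep a fixed ratio to one another from pool to pool, and these ratios do not depend on library size. Per 100 counts of Lop1, Lop2 had 2.07 counts in P1 (interval 1.89 to 2.26), 2.79 in P7, 1.74 in P8, 1.00 in P11 (0.973 to 1.03), 6.77 in P21 (6.64 to 6.89) and 3.07 in P24. P11 and P21, both rich in opsin, were thus the lowest and the highest, and their ratios differed by 6.74 times. Blop had 11.4 counts per 100 of Lop1 in P1, 11.6 in P7, 7.58 in P8, 2.67 in P11 (2.62 to 2.72), 2.67 in P21 (2.59 to 2.74) and 4.11 in P24. Here the 2 pools rich in opsin shared the lowest ratio, and P24 came next. UVop had 11.8 counts in P1, 12.4 in P7, 10.4 in P8, 4.39 in P11, 10.1 in P21 and 7.04 in P24. The P21 brain pool also held tubule transcripts (14.7%), and tubules are rich in UVop (421 to 910 CPM), whose part in its ratio was not tested. Blop and UVop exceeded the P1 level by less than Lop1 did in the P11 pool, which had 29.5 times the Lop1 of P1 but 6.92 times its Blop and 10.99 times its UVop.

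The tubule pool of P21 carried Lop1, Lop2 and Blop at 13.0%, 13.9% and 16.0% of the level in the brain pool of the same patriline. The 95 brain markers stood in this tubule pool at a median of 24.2% of the same brain pool (quartiles 22.7% and 26.4%). Nothing was subtracted in these percentages, and the 3 opsins lay below most of the markers. In the other 5 patrilines the tubules held 0.0318% to 0.123% of the brain's Lop1. Per 100 counts of Lop1, Lop2 had 6.77 counts in the P21 brain pool (interval 6.64 to 6.89) and 7.23 in the P21 tubule pool (6.89 to 7.58). Blop had 2.67 (2.59 to 2.74) in that brain pool and 3.27 (3.05 to 3.50) in that tubule pool. The Lop2 ratio of the tubule pool lay above that of the other 5 brain pools (1.00 to 3.07), as it did in the P21 brain. UVop, which the tubules of every patriline held, had 112 counts per 100 of Lop1 there. Of the 12 neuron genes, 10 were highest in P21 among the tubule pools.

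**Figure D4:**
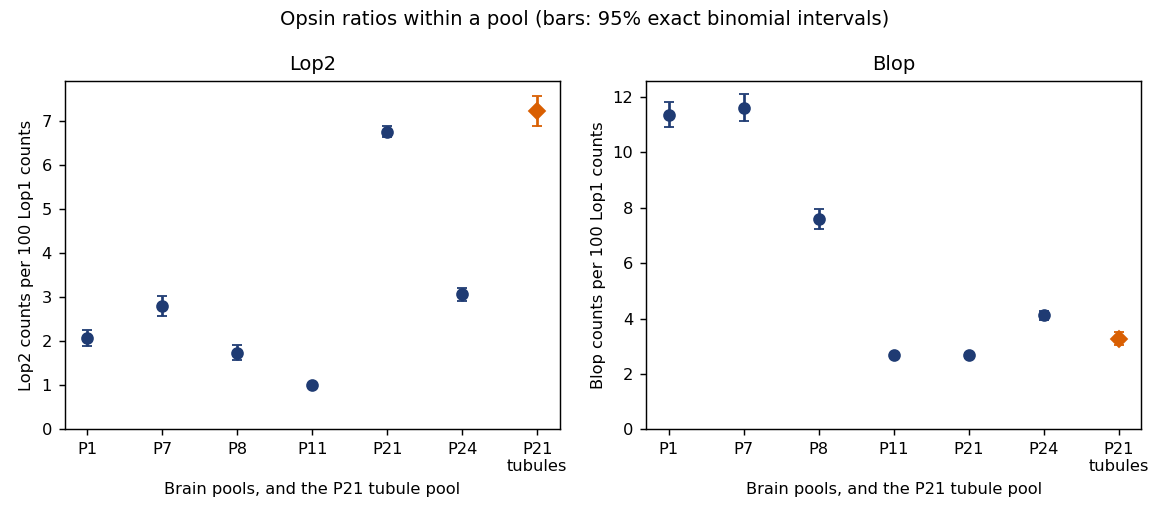
Counts of Lop2 and of Blop per 100 counts of Lop1 in the 6 brain pools (circles, by patriline) and in the tubule pool of P21 (diamond), with 95% exact binomial intervals that cover counting error only. For Lop2 the P21 brain (6.77) and P21 tubules (7.23) stand above all other pools (1.00 to 3.07), and for Blop P11 and P21 share the lowest ratio (2.67).

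UVop in the gut went with the gene next to it in the annotation, LOC102655648, which was looked at after its values were seen and has no name in the table. LOC102655648 was at 38.5 to 41.5 CPM in 5 brain pools and 436 CPM in the P21 brain, at 85.8 to 232 CPM in the ventriculus and at 1644 to 2474 CPM in the tubules. UVop stood at 24.5% to 39.9% of its neighbour in the ventriculus and at 20.0% to 38.6% in the tubules, although both genes were far higher in the tubules. In the ventriculus the percentage was 39.9% in P7, 36.4% in P24, 28.9% in P21, 25.4% in P11, 24.7% in P1 and 24.5% in P8. In the tubules it was 38.6% in P7, 28.4% in P24, 27.2% in P21, 24.0% in P11, 21.2% in P1 and 20.0% in P8. The 6 patrilines thus had the same order in both tissues, although in the ventriculus the intervals of P11 (24.3% to 26.7%), P1 (23.5% to 26.0%) and P8 (23.2% to 25.9%) overlapped, as did those of P7 (37.5% to 42.4%) and P24 (33.9% to 39.0%). In the brain the percentage was 80.1% to 121% in P1, P7, P8 and P24, 872% in P11 and 71.3% in P21.

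The neighbour was lower in the ventriculus than in the tubules by a logFC of −3.79 (SE 0.630, FDR = 6.52e-05), where UVop had −3.70. In the brain it was lower than in the tubules by −4.36 (SE 0.647, FDR = 1.10e-05), and against the ventriculus it was not called (logFC −0.58, FDR = 0.359). The P11 brain thus was rich in UVop with a neighbour at the level of the other brain pools (38.9 CPM), while the P21 brain was rich in both. Whether reads counted on UVop in the gut began in the neighbouring gene was not tested, since counts per position were not used.

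**Figure D5:**
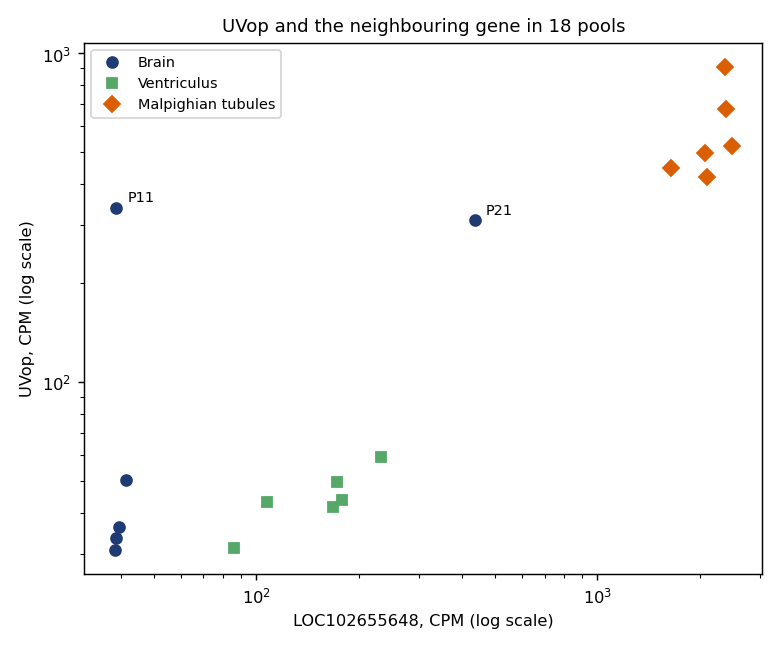
UVop against the neighbouring gene LOC102655648 in the 18 pools, both in CPM on log axes, 1 point per pool, with colour and shape for the tissue. In the ventriculus and tubules UVop lies at 20.0% to 39.9% of its neighbour, and the brain pool of P11 has 339 CPM of UVop with 38.9 CPM of the neighbour.

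Finally, the transcripts whose level followed Lop1 most closely over the 6 brain pools were listed by a fixed rule, the 5 highest Pearson r of log2 CPM (plus 0.5) among 5184 transcripts of at least 5 CPM. They were LOC550791 (r = 0.996), LOC408285 (0.996), LOC724471 (0.995), LOC409096 (0.993) and LOC551950 (0.993), none of which has a name in the table. The r describes 6 points of which P11 and P21 lie far from the rest, and over the other 4 pools it was 0.989, 0.981, 0.935, 0.913 and 0.981. Those 4 pools were among the 6 used to choose the transcripts, so this second r is a description and no separate check. LOC550791 was at 6144 CPM in P11, 2808 in P21 and 516 in P24, where P1, P7 and P8 held 258 to 310 CPM, and LOC409096 at 2519, 850 and 92.0 CPM, against 40.8 to 63.9 CPM. Both were scarce in the gut, with medians of 5.65 and 0.544 CPM in the ventriculus and 10.1 and 2.48 CPM in the tubules, and in the P21 tubule pool they stood at 383 and 140 CPM. LOC408285 differed from these in being present in the gut as well (48.5 CPM in the ventriculus and 28.9 CPM in the tubules). UVop itself had r = 0.976 with Lop1, Blop 0.948 and Lop2 0.906, and 28, 102 and 247 transcripts followed Lop1 more closely. Without P11 and P21 the r of Blop was −0.07, against 0.969 for UVop and 0.949 for Lop2.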

How the data were processed

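RNA of 18 pools was sequenced as 100 bp paired reads. Before deposit the authors used Trimmomatic for trimming, STAR for alignment and HTSeq for counting fragments per transcript, and the deposited values are raw counts. The sources used here give neither versions nor the strand setting. Symbols came from a RefSeq table of Amel_HAv3.1, which matched 27887 of 28396 features, whereas the study names Amel_4.5, so no coordinates are printed. HTSeq's 5 classes of uncounted fragments were left out. The ambiguous class, which holds fragments shared by isoforms, held 30.9% to 50.3% of all fragments in a file, so genes of several isoforms are undercounted. The classes for no feature and for alignments that are not unique held 6.26% to 17.6% and 1.47% to 2.76%.

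Tissues were compared with edgeR 4.0.16 (R 4.3.3, limma 3.58.1): filterByExpr (minimum count 10, minimum total count 15), TMM factors and the quasi-likelihood test over all 18 libraries, with a threshold of 0.05 on the FDR. The test was first run on simulated data. The SE was derived from the logFC and its statistic. Alternatives were DESeq2 1.42.0, no TMM factors, no filter, 12 libraries, counts per gene, no royal jelly transcripts, 1 patriline left out, a patriline block and, chosen after seeing the data, 3 libraries left out. By the study's methods, the 3 pools of a patriline share their workers, which pairs them. Deviations of same-patriline pools correlated between −0.18 and 0.413 over 18 pairs.

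Foreign shares used transcripts of at least 100 CPM in each of 5 source pools and at most 5% of that in the home tissue. The median of the other home pools was subtracted before a share was taken. Named genes were the 4 opsins, marker lists with their most abundant brain members, and the 5 transcripts most like Lop1. LOC102655648, Vg, Hex70a, HEX70b, Fabp, TpnCIIa, TpnCIIb and TpnCIIIa were chosen after their values were seen. Members and lists were chosen with earlier results of these data known. No 2 replicate libraries were alike within sampling noise (chi-square per degree of freedom at least 45.6 over 45 pairs).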

Additional observations from a re-analysis of the deposited data

Results flagged for a closer look

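In 5 of 12 groups of 6 pools, 1 per opsin and tissue, the highest pool stood apart by Dixon's criterion, in which its gap to the next pool as a share of the group's range passes a 95% limit. For normally distributed values chance gives about 1 in 20 groups, but the criterion was applied to CPM without a log scale, where that rate need not hold. The groups are not independent either, since the opsins were counted in the same pools. The P21 tubule pool was set apart for Lop1 (399 CPM, gap of 0.993 of the range), Lop2 (28.9 CPM, 0.991) and Blop (13.0 CPM, 0.983). In the brain, P21 stood apart for Lop2 (207 CPM, 0.643) and P11 for Blop (206 CPM, 0.685). Lop1 in the P11 brain pool (7722 CPM, 0.624) fell just short.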

How the results depend on the processing

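The numbers of transcripts called changed by less than 1.5 times under all alternatives run, and with the patriline as a block they were 8030, 7811 and 5993 in the order of the comparisons. For the brain against the ventriculus, Lop1 and Blop kept direction and call in all 14 alternatives. Lop2 passed the filter through the brain pools, so its values against the brain are a description. UVop had a logFC of 1.14 to 1.76 with 1 patriline left out, 1.03 with the patriline as a block and −0.28 without the 3 libraries that stood apart. For the brain against the tubules, UVop and Blop kept direction and call in all 14. The logFC with 1 patriline left out was 3.53 to 11.18 for Lop1 and 3.06 to 7.14 for Lop2. In the fit of 12 libraries it was 3.40 for Lop2 and 4.90 for Lop1, which was not called there. For the ventriculus against the tubules, UVop kept its call. Leaving out 1 patriline gave −7.28 to −0.29 for Lop1, −5.40 to 0.25 for Lop2 and −2.63 to 1.16 for Blop. The block gave −1.27 for Lop1 and −1.56 for Lop2, and the fit without the 3 libraries −0.17, 0.057 and 1.35 for Lop1, Lop2 and Blop. Blop was called without TMM factors (−3.55). Lop2 did not pass the filter in the 12 gut libraries alone and has no value there. The block changed no other opsin call. The cause of these changes was not tested beyond the libraries left out.

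The ratio of the highest to the lowest brain pool by library size alone was 19.6 for Lop1, 28.0 for Lop2, 7.37 for UVop and 5.65 for Blop. Without royal jelly transcripts it was 39.9, 46.0, 14.9 and 11.2. Relative to Lop1 within a pool it was 6.74 for Lop2, 2.82 for UVop and 4.36 for Blop. Without P11 and P21 it was 2.73, 4.05, 1.64 and 1.39. With 1 patriline left out the ranges were 11.7 to 29.5, 14.3 to 38.2, 10.1 to 10.99 and 3.34 to 8.41. Planned correlations between opsin pairs and with the royal jelly share were not run, because P11 and P21 lie apart from the other 4 brain pools. Depth limits the gut levels of Lop1, Lop2 and Blop, where single pools had as few as 1 count.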
